A study of Mus musculus with 6 samples.

Results

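The surface receptors through which platelets sense ADP, ATP and thrombin were examined in cultured mouse megakaryocytes with and without p45, the hematopoietic subunit of NF-E2. The set held 7 genes: the ADP receptors P2ry1 and P2ry12, the ATP-gated channel P2rx1, the thrombin receptor family members F2r, F2rl2 and F2rl3, and Adra2a, which encodes a receptor for adrenaline and so answers to none of the 3 agonists that name the set. Members were chosen by gene symbol, 7 of 32301 genes or transcripts on the array. They were read by 10 of the 41174 non-control probes of the array, and all 10 passed the background filter. All 7 genes, each through its probe with the highest mean, were among the 18210 genes tested.

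The arrays labelled p45-/- and WT came from primary megakaryocytes grown from fetal livers at E13.5, both on the C57BL/6 strain, with 3 arrays per group. The labels name no treatment, and the design text speaks of independent experiments without saying which animals were pooled. The labels' extraction protocol names whole embryos as the source of the RNA, which the field for the source of the sample contradicts, and this was not resolved. A level is given as the processed spot intensity divided by the 75th percentile of its array, or as the log2 of that ratio, and a difference is p45-/- minus WT on the log2 scale.

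Platelets answer ADP through a pair of receptors that work together. P2Y1, the product of P2ry1, couples to Gq and starts the calcium signal and shape change, and P2Y12, the product of P2ry12, couples to Gi, lowers cyclic AMP and sustains aggregation; P2Y12 is the target of the drug clopidogrel. P2X1 is an ion channel that opens when it binds ATP. Protease-activated receptors carry their own ligand, which thrombin exposes by cutting the receptor's outer end. Human platelets use the receptors encoded by F2R and F2RL3, while mouse platelets signal through the product of F2rl3, with that of F2rl2 as a cofactor that brings thrombin to it. The receptor encoded by Adra2a couples to inhibitory G proteins and strengthens the response to other agonists. Megakaryocytes make these proteins and pass them on to the platelets they release.

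All 15 megakaryocyte markers listed were well above background and tested, and their summed level was 1004 to 2134 in p45-/- and 1244 to 2155 in WT. The array of p45-/- replicate 1 stood apart. Its 75th percentile lay only 2.63 log2 units above its median, against 3.51 to 4.18 on the other 5 arrays, and its correlation with them across genes was 0.782 to 0.884, where theirs with each other was 0.941 to 0.984. Results are therefore also given without it. That setting kept WT replicate 1, which was the lowest WT array for every receptor gene of the set. For these genes p45-/- replicate 1 was also the lowest of its group. Leaving out that array alone therefore raises their differences, and does the same for any other gene lowest there. Nfe2 itself, which encodes p45, differed by -0.17 (SE 0.57, limma adjusted p = 0.923). Where its 1 probe lies relative to the deleted part is not known here, so it does not check the labels.

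Of the 7 receptor genes, 5 were lower and 2 higher in the p45-/- group mean (53.5% and 46.5% of all genes), and 0 of 7 passed limma at an adjusted p of 0.05. Their median difference was -0.19, against -0.048 over all genes, and 0.42 without p45-/- replicate 1. The share of all genes that passed was 0%, with 0 of 18210. Blocking on replicate number let 5 genes (0.0275%) pass, with 0 of the 7 receptors among them. At an unadjusted p of 0.05 the only member was P2ry12, where 3.33% of all genes were lower and 2.62% higher at that level. With the block, P2ry12 and F2rl3 were lower at an unadjusted p of 0.05 (5.96% of all genes) and Adra2a higher (14.3%). P2ry12 was also the only member at least 2-fold lower, against 3.68% of all genes, and Adra2a the only one at least 2-fold higher, against 14.6%. A further fit gave each array a weight that was lower the further its values lay from the mean of its own group. The weights were 0.0979, 2.01 and 1.80 for p45-/- arrays 1 to 3. For WT arrays 1 to 3 they were 0.395, 1.66 and 4.32, so WT array 3 counted most. With these array weights P2ry12 passed (limma adjusted p = 0.0221), as did 504 of 18210 genes (2.77%). Its probe passed the background filter through WT alone, because p45-/- array 1, the array of lowest weight, was not well above background.

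P2ry12 had the largest difference of the 7. In replicates 1, 2 and 3 of p45-/- its level was 0.0264, 0.0593 and 0.0548, compared with 0.0953, 0.353 and 0.416 in WT. All 3 p45-/- arrays lay below all 3 WT arrays, a pattern that 8.43% of all genes showed in this direction. On the log2 scale the level was -4.50 ± 0.64 (SD, n = 3) against -2.05 ± 1.17 (SD, n = 3). Its probe cleared background on 2 of 3 arrays in p45-/- and on 3 of 3 in WT, so the gene entered the test through WT alone. With the dim array at its measured value, the means were 5.47-fold apart, or -2.45 in log2 (SE 0.65) with a 95% interval from -4.01 to -0.89, and limma put the adjusted p at 0.566. Without that array the difference was -2.08 (limma adjusted p = 0.507). An exact two-sided permutation test over the 6 arrays gave p = 0.1, the smallest it can give here.

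Arrays of the same replicate number are called pairs here, a pairing that the labels do not state. For P2ry12 they differed by -1.85, -2.57 and -2.93 in pairs 1, 2 and 3. Its signal was low on every array: the processed intensity was 3.57 on p45-/- array 1, which was not well above background, 24.1 and 32.3 on the other p45-/- arrays, and 32.3, 206 and 239 on the WT arrays. The p45-/- value on 1 array is therefore a bound only. With normexp background correction and an offset of 50, which compresses dim signals, the difference was -0.56. In that setting 6 of the 7 receptors were lower and 1 higher, with F2rl3 at -0.61 and F2r at -0.45. The 15 megakaryocyte markers were all lower there, with a median of -0.64, against 0.081 over all genes. P2ry12 was dimmer than all of these markers, so the offset compressed its difference more than theirs. That setting therefore cannot tell whether P2ry12 stood out from them.

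P2ry1, the other ADP receptor, did not share this pattern. Its brighter probe read 12.6, 58.7 and 32.4 in p45-/- replicates 1 to 3, where WT gave 18.5, 30.4 and 30.8. The lowest and the highest value were both p45-/- arrays, so the WT values lay inside their range. The means differed by 0.15 (SE 0.59, adjusted p = 0.934 in limma), and the 95% interval of -1.27 to 1.58 leaves room for more than a 2-fold change either way. A dimmer second probe of P2ry1 had levels of 0.661, 2.48 and 2.34 against 0.831, 2.04 and 2.75, a difference of -0.091. The sign for the brighter probe also turned with normexp (-0.051) and with median scaling (-0.36).

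Setting P2ry12 against P2ry1 on the same array removes the scaling of the array from the comparison. The log2 ratio was -8.90, -9.95 and -9.21 in p45-/- replicates 1 to 3, compared with -7.60, -6.43 and -6.21 in WT, and the groups did not overlap. The mean ratio was 6.08-fold lower in p45-/- (difference -2.61), with the dim P2ry12 array at its measured value, and the difference was -2.83 without that array. The exact two-sided permutation p was 0.1, the smallest possible, and 0.25 after Benjamini-Hochberg adjustment over the 5 receptor pairs compared. Leaving out any 1 array kept the difference between -3.03 and -2.31, while normexp gave -0.51.

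P2rx1, the ATP-gated channel, stood at 1.59, 7.83 and 3.97 in p45-/- and at 1.85, 7.09 and 5.52 in WT. In both groups replicate 1 was lowest and replicate 2 highest, and the groups overlapped throughout. The log2 means were -0.18 apart (SE 0.74, adjusted p = 0.938 in limma), with a 95% interval of -1.96 to 1.59. Same-numbered arrays differed by -0.22, 0.14 and -0.48 in pairs 1, 2 and 3. Without p45-/- replicate 1 alone, with the low WT replicate 1 kept, the difference was 0.42. Its ratio to P2ry1 differed by -0.34 between the groups (exact two-sided permutation p = 0.4, adjusted p = 0.667).

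**Figure D1:**
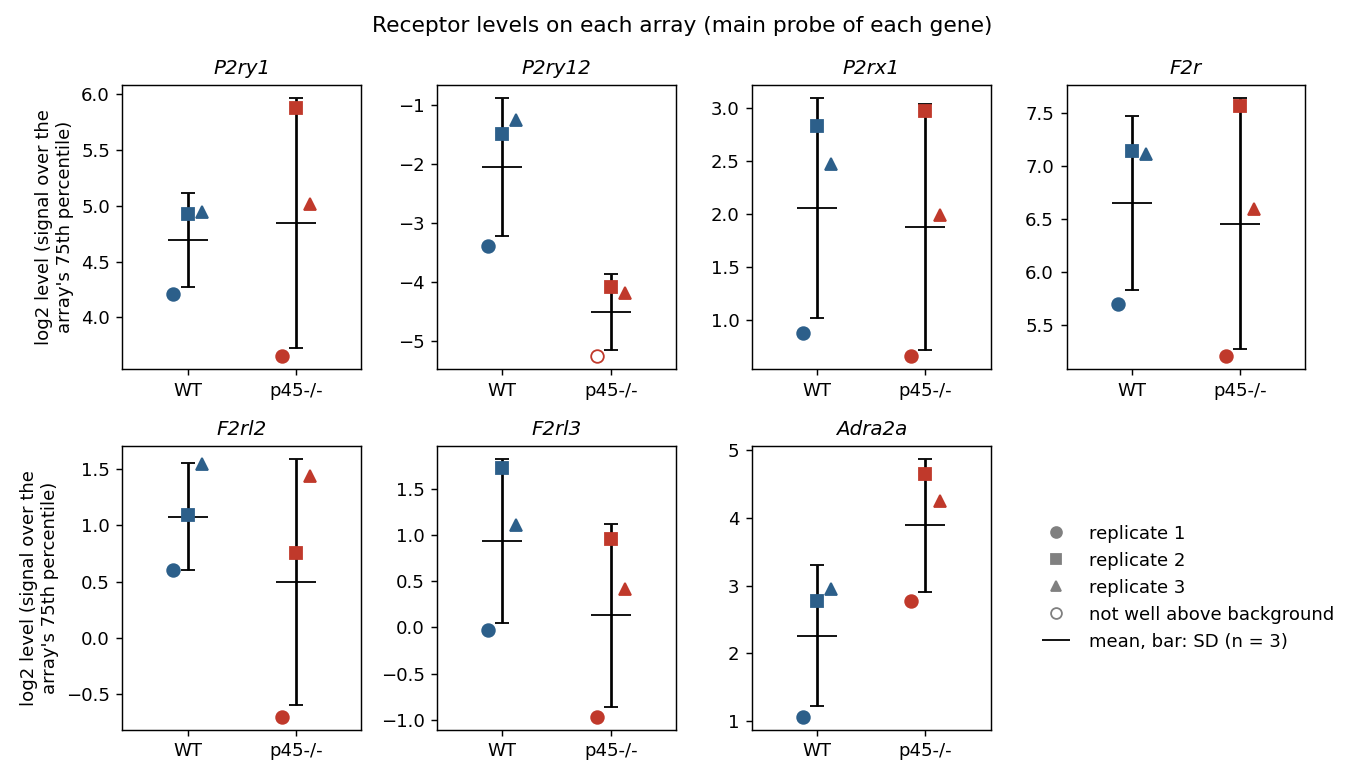
Log2 level (processed signal over the array's 75th percentile) of the main probe of each of the 7 receptor genes, with WT arrays in blue, p45-/- arrays in red, symbols by replicate number, and the mean with SD (n = 3). Only for P2ry12 do all p45-/- arrays lie below all WT arrays, and its open symbol is the array that was not well above background; replicate 1 is the lowest array of its group in every panel.

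Among the thrombin receptors, F2rl3, which encodes the signalling receptor of mouse platelets, measured 0.511, 1.94 and 1.33 in the p45-/- cultures, compared with 0.984, 3.32 and 2.17 in WT. The groups overlapped, but each p45-/- array was below the WT array of the same number, by -0.95, -0.78 and -0.70 in pairs 1, 2 and 3. The group mean was 1.75-fold lower, or -0.81 in log2 (SE 0.65, adjusted p = 0.717 in limma), and the 95% interval ran from -2.37 to 0.75. It was smaller with each array centred on the megakaryocyte markers (-0.26) and larger with median scaling (-1.32), so its size depended on how the arrays were brought to a common scale. Without p45-/- replicate 1 alone it was also -0.26, but that setting kept the low WT replicate 1, and pairs 2 and 3 differed by -0.78 and -0.70.

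F2rl2, the cofactor gene, read 0.616, 1.69 and 2.71 in p45-/- and 1.52, 2.13 and 2.92 in WT, with overlap between the groups. Its means were -0.58 apart (SE 0.59, adjusted p = 0.753 in limma), within a 95% interval of -1.997 to 0.84. Pairs 1, 2 and 3 differed by -1.30, -0.33 and -0.10, so most of the F2rl2 difference came from pair 1. Without p45-/- replicate 1 alone, with the low WT replicate 1 kept, the value was 0.021. F2r, which encodes the receptor that human platelets use, gave a bright signal in every culture, with a processed intensity of 5003 to 77200 in p45-/- and 17610 to 82458 in WT, and 0 saturated spots. Its levels were 37.0, 190 and 96.9 in p45-/- and 51.9, 141 and 138 in WT. The groups overlapped, and F2r differed by -0.19 (SE 0.70, adjusted p = 0.930 in limma, 95% interval -1.86 to 1.48). Its pairs 1, 2 and 3 differed by -0.49, 0.42 and -0.51. Without p45-/- replicate 1 alone, again with WT replicate 1 kept, F2r differed by 0.43.

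Relative to F2r on the same array, F2rl3 was lower throughout the p45-/- group. Its log2 ratio to F2r was -6.18, -6.61 and -6.18 there and -5.72, -5.41 and -5.99 in WT, without overlap, a difference of -0.61 or 1.53-fold. The exact two-sided permutation test gave p = 0.1, the smallest possible, and an adjusted p of 0.25 over the 5 pairs, and normexp reduced the difference to -0.16. The ratio of F2rl3 to F2rl2 differed by -0.23 and that of F2r to F2rl2 by 0.39, both with overlapping groups and an adjusted p of 0.7 in exact permutation tests.

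**Figure D2:**
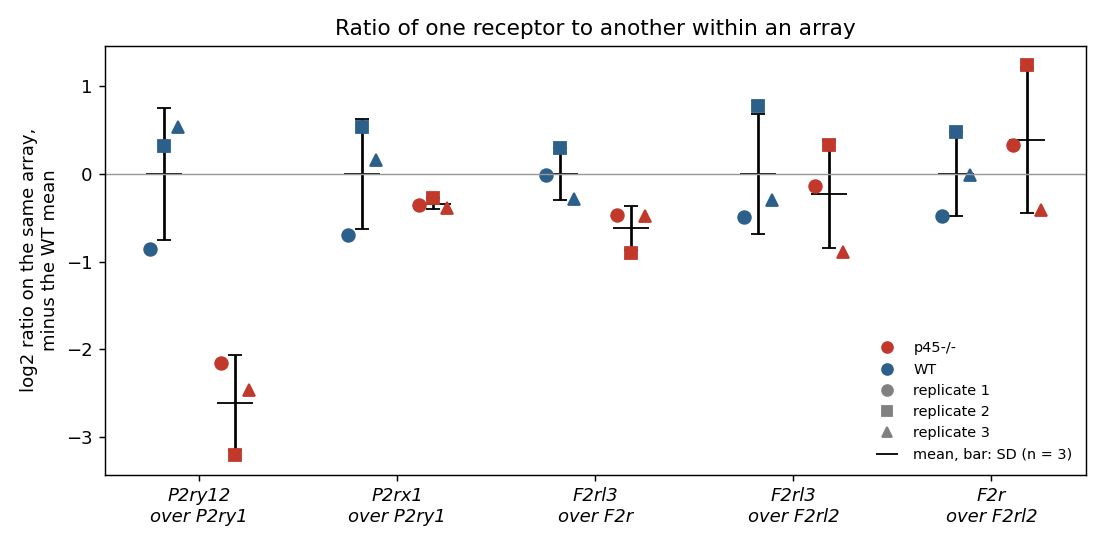
Log2 ratio of 1 receptor to another on the same array, drawn relative to the WT mean of that ratio, with WT arrays in blue, p45-/- arrays in red and the mean with SD (n = 3). The p45-/- arrays lie below the WT arrays for P2ry12 over P2ry1 and for F2rl3 over F2r, and the groups overlap for the other 3 ratios.

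Adra2a, the adrenaline receptor gene, was the member with the largest difference upward, and 3 probes read it alike. The main probe gave 6.83, 25.02 and 19.0 in p45-/- replicates 1 to 3, where WT gave 2.09, 6.84 and 7.74. The groups overlapped because p45-/- array 1 lay just below WT arrays 2 and 3. The group mean was 3.08-fold higher, or 1.62 in log2 (SE 0.69) with a 95% interval of -0.038 to 3.29. Limma's adjusted p was 0.704, and an exact two-sided permutation test gave 0.3. The other probes differed by 1.64 and 1.62. For the dimmer of these the p45-/- levels were 0.533, 1.22 and 1.04 and the WT levels 0.124, 0.433 and 0.418, so that the groups did not overlap, as for 4.77% of all genes in this direction.

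Each p45-/- array also exceeded the WT array of the same number for Adra2a, by 1.71, 1.87 and 1.30 on the main probe. With the arrays centred on the mean of the 15 megakaryocyte markers, the level was -1.64, -1.24 and -1.49 in p45-/- and -4.07, -3.47 and -3.34 in WT, a difference of 2.17 (limma adjusted p = 0.770). The same centring left P2ry12 at -9.65, -9.96 and -9.93 in p45-/- and -8.53, -7.74 and -7.56 in WT, a difference of -1.91. On this scale, where the median difference of all genes was 0.50, the groups did not overlap for P2ry12, as for 1.43% of all genes in the lower direction. In the higher direction they did not overlap for Adra2a and for P2ry1 (0.70), as for 6.3% of all genes.

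Read pair by pair, 3 of the 7 genes (P2ry12, F2rl2 and F2rl3) were lower in all 3 pairs, as were 23.6% of all genes, and 1 of 7 (Adra2a) was higher in all 3, as were 23.3%. Slide 2 held replicates 1 and 2 of both groups, and slide 1 held replicate 3 of both. A difference within a slide therefore only regroups the pairs. For these 4 genes, picked for 1 direction in all 3 pairs, it could not change sign, so it does not test the slide. P2ry12 differed by -2.21 within slide 2 and by -2.93 within slide 1, with 1 array per group and no test. Adra2a differed by 1.79 and 1.30.

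**Figure D3:**
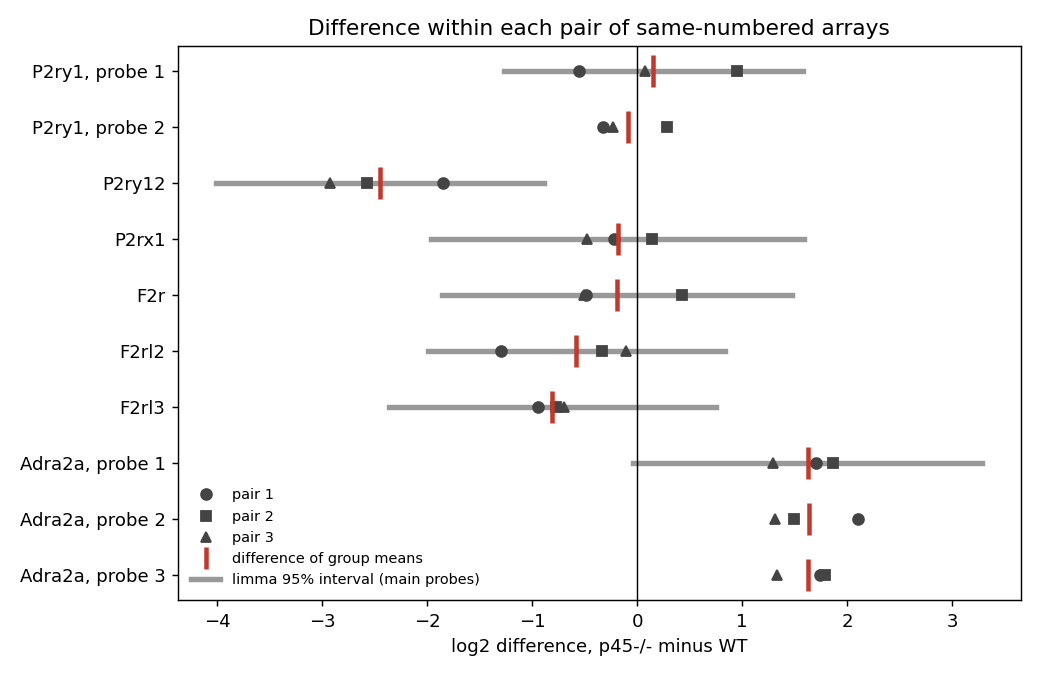
Log2 difference (p45-/- minus WT) of each of the 10 probes within the 3 pairs of same-numbered arrays (symbols), with the difference of the group means (red) and, for the main probe of each gene, limma's 95% interval (grey). The 3 pairs of P2ry12, at -1.85 to -2.93, and those of all 3 Adra2a probes, at 1.30 to 2.10, lie well away from 0, while those of P2ry1, P2rx1 and F2r fall on both sides of it.

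The promoters of the 4 genes whose 3 pairs differed in 1 direction are shown, since NF-E2 is a DNA-binding factor. They are RefSeq sequences of build GRCm38.p6, from 250 bases before to 50 after the annotated start of the gene, read 5′ to 3′ on the strand of the gene. Capitals mark matches on either strand to the core TGANTCA, to the NF-E2 element, which is that core preceded by TGC and so contains it, to a GATA motif (AGATAA) or to an ETS motif (CCGGAA).
P2ry12, chr3:59262936-59263235, minus strand: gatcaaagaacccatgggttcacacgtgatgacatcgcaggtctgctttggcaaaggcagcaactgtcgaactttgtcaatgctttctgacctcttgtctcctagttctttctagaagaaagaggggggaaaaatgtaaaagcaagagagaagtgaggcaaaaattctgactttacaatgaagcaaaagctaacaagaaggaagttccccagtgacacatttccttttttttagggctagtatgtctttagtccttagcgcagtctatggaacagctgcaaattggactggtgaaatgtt
F2rl2, chr13:95696670-95696969, plus strand: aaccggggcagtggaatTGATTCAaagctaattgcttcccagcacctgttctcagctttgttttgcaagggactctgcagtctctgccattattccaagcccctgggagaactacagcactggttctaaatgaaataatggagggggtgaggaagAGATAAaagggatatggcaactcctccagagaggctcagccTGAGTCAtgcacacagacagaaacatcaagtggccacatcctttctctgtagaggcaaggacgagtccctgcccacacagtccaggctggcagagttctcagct
F2rl3, chr8:72761409-72761708, plus strand: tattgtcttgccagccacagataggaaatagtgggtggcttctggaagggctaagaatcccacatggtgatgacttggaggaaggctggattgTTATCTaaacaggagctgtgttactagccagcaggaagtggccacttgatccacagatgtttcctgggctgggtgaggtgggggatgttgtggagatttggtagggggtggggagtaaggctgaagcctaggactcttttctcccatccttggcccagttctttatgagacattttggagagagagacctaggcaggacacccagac
Adra2a, chr19:54045009-54045308, plus strand: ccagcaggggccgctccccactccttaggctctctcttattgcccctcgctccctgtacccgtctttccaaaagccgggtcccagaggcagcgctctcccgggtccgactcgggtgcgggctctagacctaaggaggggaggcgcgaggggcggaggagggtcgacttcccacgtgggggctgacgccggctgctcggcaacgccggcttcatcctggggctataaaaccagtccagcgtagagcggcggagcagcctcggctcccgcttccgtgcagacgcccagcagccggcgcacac

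The NF-E2 element itself matched in 0 of the 7 promoters, and in 0.423% of all 32851 promoters of 300 bases. F2rl2 held the core in 2 places, and F2r, its near neighbour in the genome, in 1, against 7.81% of all promoters with a match. A GATA match stood in the promoters of P2rx1, F2rl2 and F2rl3 (11.2% of all promoters) and an ETS match in those of P2rx1 and F2r (14.9%). The windows of P2ry12, P2ry1 and Adra2a held none of the 4 motifs. These are matches of the exact letters given above in a short window. Other forms of the GATA and ETS motifs, and elements outside the window, were not examined.

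Genes beside the receptors were read in the same way. The 3 nearest protein-coding genes on each side gave 21 tested genes that are not members, of which 13 were lower, 8 higher and 0 past the threshold, with differences between -1.19 and 0.64. P2ry12 lies in a cluster with related receptor genes. P2ry13, the adjacent gene and another ADP receptor, differed by 0.24 (SE 0.42), and P2ry14, a receptor for nucleotide sugars, by -0.64 (SE 0.43). Iqgap2, which encodes a scaffold protein, differed by 0.14, and Sucnr1, the succinate receptor gene near P2ry1, by -1.19. Iqgap2 falls between F2r and F2rl2 when genes are ordered by start position, and whether it overlaps them was not examined.

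Several transcripts followed the members closely over the 6 arrays, among 11638 or 11639 named genes that were well above background on all of them. For P2ry12 the highest Pearson correlations were with Mbnl2 (0.995), Pik3cg (0.993) and Vps33b (0.993), whose own differences were -0.54, -0.90 and -1.66. Pik3cg encodes the phosphoinositide 3-kinase catalytic subunit that G protein-coupled receptors activate. Adra2a was followed by Tle1 (0.993), Pebp1 (0.989) and Metap1d (0.988), and F2rl3 by Unc45a (0.997), Tprgl (0.996) and Atg4d (0.996). P2ry1 went with Ubr1, Slc35e2 and Matr3, P2rx1 with Fnta, Alox5 and Amigo3, F2r with Pacsin2, Ttll12 and Epor, and F2rl2 with Phkb, Rpl24 and Slc44a2, all at 0.994 or more. The arrays share the low replicate 1 values, so these figures only describe 6 arrays. Between members, P2rx1 and F2r ran together most closely (0.988), and the lowest value was that of P2ry12 with Adra2a (-0.23).

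Related receptors that platelets are not known to rely on showed no common direction. Of 13 listed nucleotide and protease-activated receptors, 11 were tested, 7 were higher, 4 lower and 0 passed, with a median difference of 0.095 against -0.048 over all genes. That median was -0.42 with median scaling (-0.56 over all genes), -0.088 with quantile normalization and -0.11 without p45-/- replicate 1. The smallest unadjusted p-values belonged to P2rx2 (1.30, SE 0.69), P2ry10 (-1.17, SE 0.68) and P2ry14. P2ry4 and F2rl1, the remaining protease-activated receptor gene, were not well above background on any array.

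The receptors for other platelet agonists and inhibitors leaned lower. Of 14 tested, 11 were lower and 3 higher, 0 passed, and the median difference was -0.47. Those with the smallest p-values were Ptger4, a prostaglandin E receptor gene (-1.16, SE 0.34), Adora2b, an adenosine receptor gene (-1.01, SE 0.35), and Sucnr1 (-1.19, SE 0.53). In 2 of the 14 all p45-/- arrays were below all WT arrays, against 8.43% of all genes. The median was 0.071 when arrays were centred on the megakaryocyte markers, where that over all genes was 0.50.

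Signalling proteins below the receptors were mostly lower in group mean. Of 37 tested genes for G proteins, their effectors and the relay to the integrin, 32 were lower and 5 higher, with a median of -0.41, and 0 passed. For 9 of the 37 every p45-/- array was below every WT array, against 8.43% of all genes. Prkcd, a protein kinase C gene, differed by -1.47 (SE 0.29, limma adjusted p = 0.380), Itpr2, which encodes a calcium release channel of internal stores, by -0.84 (SE 0.29) and Pik3cg by -0.90 (SE 0.37). With array weights, 2 of the 37, Prkcd and Itpr2, passed (limma adjusted p = 0.0309 and 0.0380), where 2.77% of all genes did. Without p45-/- replicate 1 the median was -0.19, and with the arrays centred on megakaryocyte markers it was 0.13, where that over all genes was 0.50.

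Genes that switch these receptors off or serve their trafficking had a median of -0.34, with 13 of 15 lower, 2 higher and 0 past the threshold. Rgs18, which speeds the shut-off of Gq and Gi in platelets, differed by -1.38 (SE 0.66), and the receptor kinase genes Grk6 and Grk2 by -0.71 (SE 0.36) and -0.59 (SE 0.29). The median of this list was -0.16, with 10 of 15 lower, without p45-/- replicate 1, and 0.21 with centring on megakaryocyte markers, against 0.50 over all genes.

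Storage, release and breakdown of ADP and ATP were covered by 24 tested genes, 17 lower and 7 higher, with a median of -0.29 and 0 past the threshold. Panx1, which encodes a membrane channel that releases ATP, had log2 means of 3.46 in p45-/- and 5.29 in WT, a difference of -1.83 (SE 0.58, limma adjusted p = 0.704), with groups that did not overlap; with array weights it passed (limma adjusted p = 0.0440), as did 2.77% of all genes. Abcc4, an exporter found in dense granules, differed by -1.18 (SE 0.53) and Rab27a, a granule GTPase gene, by -0.71 (SE 0.35). The median was 0.26 with centring on megakaryocyte markers, against 0.50 over all genes, and 0.026 without p45-/- replicate 1, against 0.069 over all genes.

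On the thrombin side, 15 genes of its source, cofactors and inhibitors were tested, 6 lower and 9 higher, with a median of 0.16 and 0 past the threshold. F2, which encodes prothrombin, differed by 1.54 (SE 0.46), Serpinc1, which encodes antithrombin, by 1.28 (SE 0.46), and F5, the gene of coagulation factor V, by -2.14 (SE 0.92). F2 and Serpinc1 are genes of hepatocytes. In the same arrays 12 of 12 tested hepatocyte markers were higher in group mean. Their summed levels were 54.7, 108 and 191 in p45-/- replicates 1 to 3 and 72.2, 43.4 and 74.3 in WT, so the sum was lower in pair 1. F2 differed by 1.53, 1.46 and 1.62 in pairs 1 to 3, and Serpinc1 by 2.12, 0.12 and 1.59. The part of hepatocytes in the F2 and Serpinc1 values was not tested. The median of the thrombin list was -0.35 with median scaling and -0.039 with quantile normalization, and 0.46, with 11 of 15 higher, without p45-/- replicate 1.

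**Figure D4:**
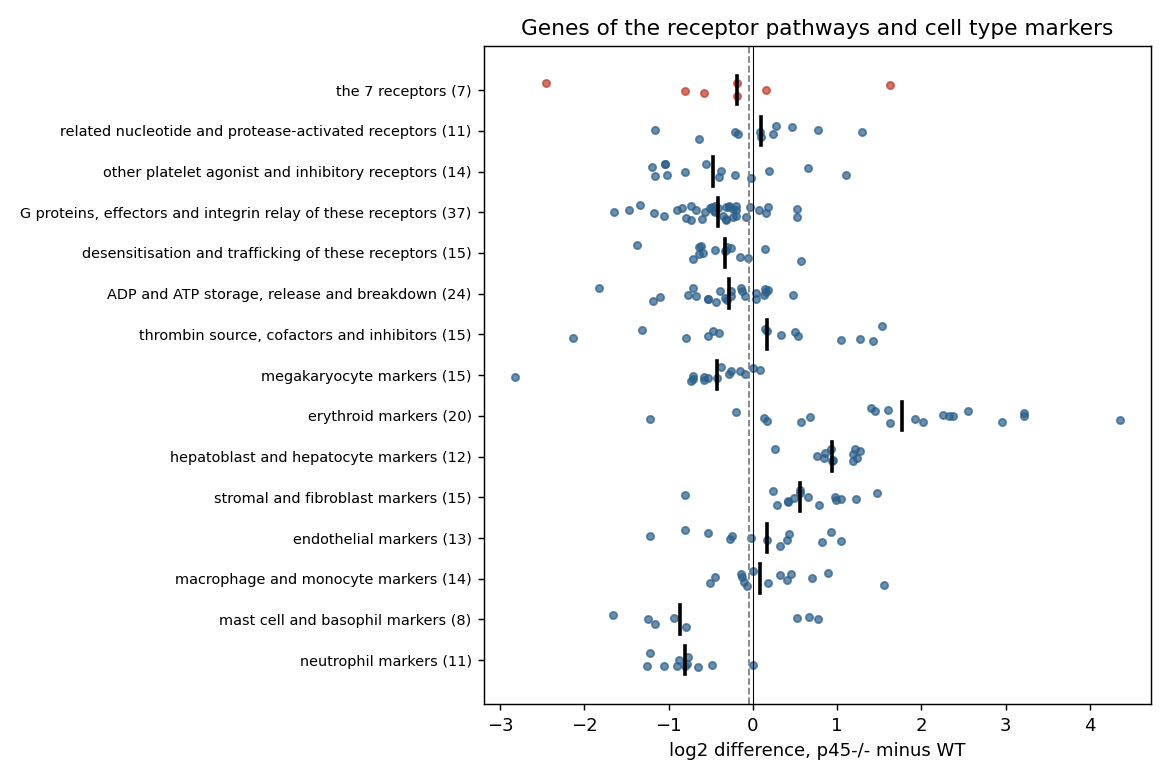
Log2 difference (p45-/- minus WT) of each tested gene of the 7 receptors (red) and of 14 lists of related genes and cell type markers (blue), with the number tested in brackets, the median of each list as a black bar and the median of all genes (-0.048) as a dashed line. The signalling genes lie mostly to the left of the dashed line and the erythroid markers mostly to the right of it.

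Markers of other cell types differed between the groups as well, and in bulk RNA fewer cells of a type cannot be told apart from less RNA per cell. Of 20 erythroid markers tested, 18 were higher, with a median difference of 1.78 and summed levels of 124 to 253 in p45-/- and 40.9 to 70.2 in WT, and Trim10, a gene of erythroid maturation, differed by 3.22. All 11 neutrophil markers were lower, with overlapping summed levels of 708 to 1281 in WT against 542 to 1047 in p45-/-. The mast cell and basophil markers, 5 of 8 lower, summed to 4.83 to 17.8 in p45-/- and 13.1 to 31.2 in WT, again with overlap. Of 15 stromal markers 14 were higher, with a median of 0.56 that was 1.13 without p45-/- replicate 1, while their summed levels overlapped (32.2 to 73.2 against 51.6 to 58.1). The sums of endothelial markers (26.5 to 50.05 against 25.7 to 48.5) and macrophage markers (145 to 186 against 115 to 247) overlapped too. In limma without weights 0 genes of these lists passed, as over all genes, but with array weights 7 erythroid, 2 stromal, 1 neutrophil and 1 hepatocyte marker passed, in the same fit that called P2ry12, Prkcd, Itpr2 and Panx1. The part of these cells in the P2ry12 and Adra2a values was not tested. Among the megakaryocyte markers, 13 of 15 were lower, with a median of -0.43 that was 0.045 without p45-/- replicate 1, and Selp, the gene of the granule protein P-selectin, differed most at -2.83 (SE 0.65, limma adjusted p = 0.468).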

How the data were processed

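Single-colour Agilent arrays of 3 p45-/- and 3 WT cultures were used. Per the file headers, the deposited intensity of a spot comes from Agilent Feature Extraction 10.7.3.1, had its background subtracted and was detrended across the slide surface, with no scaling between arrays; the submitters' processing notes name version 10.1. The series' value table, as deposited by the authors, held the same linear intensities to within 0.497%, uncentred, with column medians of 20.9 to 42.0.

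From these, log2 values minus each array's 75th percentile were computed over non-control probes. Spots marked as outliers (32 to 80 per array) were left out and spots of a probe averaged. Probes had to be well above background throughout 1 group or both (23957 of 41174). The probe with the highest mean stood for a gene, and symbols came from RefSeq accessions (26690 probes matched) of a gene table of another build than the array's, used for names and neighbours only.

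Groups were compared with limma 3.58.1 in R 4.3.3 (lmFit, eBayes, two-sided, Benjamini-Hochberg over 18210 genes, threshold 0.05, no block), tested on simulated data. Receptor ratios within arrays were compared by exact permutation. The p-values measure the spread between these arrays, and the number of arrays limits the precision. Deviations of same-numbered arrays from their group means correlated at 0.647, 0.589 and 0.270. Arrays of different numbers were not compared in this way, and replicate 1 had the lowest 75th percentile in both groups (135 and 339). Whether these values reflect pairing was not tested, and the labels name none, so a pair here means only arrays of the same number. Pearson correlations set 6 arrays against each other.

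The members and lists were chosen with earlier results of these data known. Named were the members, Nfe2, the 3 genes of smallest p in a list where none was called, tested neighbours, and the 3 named genes most correlated with each member; Prkcd, Itpr2 and Panx1 are among these. P2ry13, P2ry14, Iqgap2 and Sucnr1 are neighbours, singled out of 21 after their values were seen. The alternatives tried were a block on replicate number or on slide, each slide alone, normexp on median spot and background intensities (in place of the planned mean signal, a column not used here), quantile and median scaling, centring on megakaryocyte markers, the value table, other probe filters and choices, array weights, and leaving out arrays.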

Additional observations from a re-analysis of the deposited data

How the results depend on the processing

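P2ry12 stayed lower and Adra2a higher under every alternative that gave a value, from -3.12 to -0.56 for P2ry12 over 21 settings and from 1.03 to 2.18 for Adra2a over 22, and F2rl3 stayed lower (-1.32 to -0.24); P2ry12 gave no value when probes had to be well above background on all 6 arrays. With the replicate block, 5 genes passed in place of 0, and limma's adjusted p was 0.0705 for P2ry12, 0.1002 for Adra2a and 0.188 for F2rl3, so the block changed no member's call. The count of genes past the threshold was 10 with median scaling (all lower), 504 with array weights (with 1 member, P2ry12, at an adjusted p of 0.0221), 18 without replicate 1 of both groups (P2ry12 -2.75, adjusted p = 0.0612), and 0 to 1 when any 1 array was left out. The receptors near no difference changed sign. P2ry1 was -0.051 with normexp, -0.36 with median scaling, and -0.36 without p45-/- replicate 2 and -0.087 without WT replicate 1, within -0.36 to 0.75 over arrays left out. F2r was 0.15 with quantile normalization, 0.35 centred on megakaryocyte markers, 0.032 with array weights, 0.44 without p45-/- replicate 1 and with the slide as a block, and -0.75 to 0.43 over arrays left out (0.054 without WT replicate 2, 0.037 without WT replicate 3). P2rx1 was 0.36 with that centring, 0.43 without p45-/- replicate 1 and with the slide block, and -0.77 to 0.42 over arrays left out (0.20 and 0.019 without WT replicates 2 and 3), and F2rl2 ranged from -1.05 to 0.021 over arrays left out, with a lowest value of -1.09 under median scaling. The F2r to F2rl2 ratio was -0.081 with normexp and -0.039 to 0.79 over arrays left out, and the F2rl3 to F2rl2 ratio -0.51 to 0.16 (0.10 without p45-/- replicate 3). The cause was not tested. The P2ry12 signal, near background on the p45-/- arrays, limits the precision of its fold.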
